A study of Mus musculus with 48 samples.

Results

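Il33 and 7 further genes of the interleukin-1 family were followed across the libraries of a mouse preoptic area study. The members are the ligands Il33, Il18, Il1f9 and Il1b, the receptors Il1rl1, Il1rap and Il1r1, and the receptor-like gene Il1rapl1. They were taken by name as 8 of the 23284 genes in the deposited count table, and they were chosen by the adult and young levels of Il33 in these same libraries. The adult and young values of the members below are therefore a description, with no test.

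The study asked how prenatal exposure to dihydrotestosterone (DHT), an androgen, alters RNA in gonadotropin-releasing hormone (GnRH) neurons and the tissue around them in females. Mice carried GnRH CRE and Floxed L10a-GFP, so that Cre recombinase made in GnRH neurons switched on a ribosomal protein tagged with green fluorescent protein. RNA was sequenced from the ribosomes pulled down through that tag (IP) and from GnRH-depleted supernatant of preoptic area punches. Adults were collected in diestrus and young mice before puberty, and the labels give neither an exact age nor whether a library pooled animals. With Cre, there were 6 adult DHT, 5 adult vehicle, 6 young DHT and 6 young vehicle libraries in each fraction. Young mice with Floxed L10a-GFP and no Cre gave 1 further IP and 1 further supernatant library, and the labels name no prenatal agent for them. All groups share the floxed tag, and a Cre line marks every cell in which its promoter was ever active, so the tag alone does not define an adult GnRH neuron.

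Interleukin-1 family ligands are alarm signals. Interleukin-33, the product of Il33, sits in the nucleus and is released when cells are damaged, and in the mouse brain it is made by oligodendrocytes and astrocytes. It binds ST2, encoded by Il1rl1, which pairs with the accessory chain encoded by Il1rap. The same accessory chain completes the interleukin-1 receptor (Il1r1), which binds the products of Il1b and Il1a, and the interleukin-36 receptor, which binds the product of Il1f9. Interleukin-18 has its own receptor chains and a soluble decoy, Il18bp, and Il1rapl1 encodes a synaptic adhesion protein. The receptors of the ligands signal through Myd88, the Irak kinases, Traf6 and the Tab proteins to nuclear factor kappa B.

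The 23 IP libraries with Cre held between 28672556 and 47054029 counts each and the 23 supernatants with Cre between 28136000 and 55479451. A single read was worth 0.018 to 0.0355 CPM, a unit that divides each count by its library total. Gnrh1, the transcript of the targeted cells, ran from 664 to 16070 CPM in IP libraries with Cre, against 19.9 to 50.4 CPM in their supernatants, and stood at 61.6 CPM in the IP without Cre. Glial RNA was present in the IP: 10 oligodendrocyte markers together made 1307 to 5599 CPM there, against 2164 to 6957 CPM in the supernatants. The libraries with the last 10 sample numbers in the labels, 5 young IPs and 5 young supernatants, stood apart for some genes, and values without them are given where it matters.

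Il33 lies on mouse chromosome 19 at 29925114-29960718 on the forward strand (GRCm38, GENCODE annotation), with 10 separate exon blocks that cover 2886 bases. RefSeq (GRCm38.p6) gives it 2 start sites, and both windows are shown because the table holds a single count for the gene and so does not say which start was used. Each runs from 250 bases before the start to 50 after it, on the forward strand, with matches to the TATA box letters TATAAA in capitals.
Il33 upstream window, chr19:29924863-29925162: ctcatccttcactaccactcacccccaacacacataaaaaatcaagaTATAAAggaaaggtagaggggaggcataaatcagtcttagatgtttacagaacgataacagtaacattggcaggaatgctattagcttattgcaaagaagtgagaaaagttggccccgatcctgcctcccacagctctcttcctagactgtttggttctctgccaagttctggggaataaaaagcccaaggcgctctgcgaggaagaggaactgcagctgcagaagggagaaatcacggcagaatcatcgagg
Il33 downstream window, chr19:29945540-29945839: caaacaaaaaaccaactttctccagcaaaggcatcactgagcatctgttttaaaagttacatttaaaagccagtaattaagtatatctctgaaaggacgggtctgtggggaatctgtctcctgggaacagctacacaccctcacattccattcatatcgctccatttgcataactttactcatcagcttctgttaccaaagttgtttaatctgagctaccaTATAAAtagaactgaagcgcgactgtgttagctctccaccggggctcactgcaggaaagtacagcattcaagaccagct
The match stood at position -29, counted from the start, in the downstream window and at position -203 in the upstream one. TATAAA, searched on both strands, occurs in 13.6% of the 32851 RefSeq promoter windows of the same length. Neither Il33 window held CTGGCAC (the core bound by the oligodendrocyte factor MYRF), ACAAAG (a SOX core), TTCNNNGAA (a STAT site) or the core of the interferon response element, which occur in 5.01%, 18.7%, 8.3% and 3.44% of all windows. Among the 9 other windows of the members, CTGGCAC occurred in that of Il1r1 (position -142), TTCNNNGAA in that of Il1f9 (position -128), the interferon response core in that of Il1rap (position 20) and ACAAAG in that of Il18 (position -2). TATAAA occurred in those of Il1b (position -31) and, on the reverse strand, Il18 (position -175). A match describes these letters only.

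Il33 was high in every adult library and low in every young one, in both fractions. In the IP it had a lowest, median and highest level of 21.3, 71.8 and 112 CPM in adult DHT mice, against 5.64, 13.9 and 20.1 CPM in young DHT mice. The 5 adult vehicle IPs held 73.6, 86.5, 66.6, 53.1 and 71.0 CPM, against 2.46, 11.2 and 18.7 CPM (lowest, median, highest) in young vehicle IPs. The supernatant showed the same separation. The lowest, median and highest supernatant levels were 57.6, 76.6 and 118 CPM in adult DHT mice, against 8.36, 11.8 and 14.9 CPM in young DHT mice. Adult vehicle supernatants held 88.8, 58.8, 66.0, 71.0 and 78.3 CPM, against 6.94, 9.86 and 12.2 CPM (lowest, median, highest) in young vehicle supernatants. No adult library overlapped a young one, and the nearest pair were adult DHT IP replicate 5 (21.3 CPM) and young DHT IP replicate 4 (20.1 CPM).

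**Figure D1:**
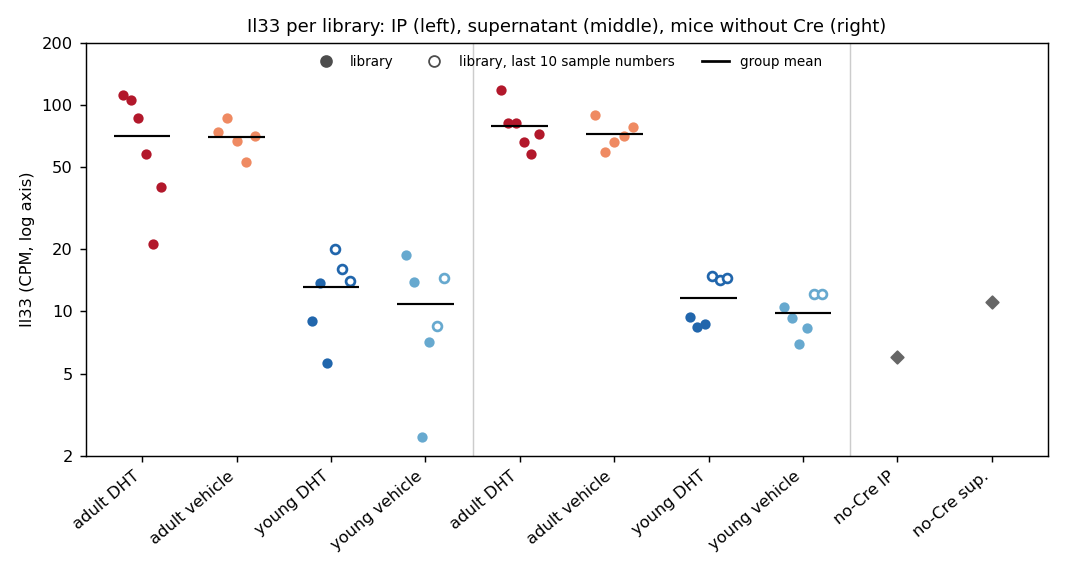
Il33 in every library (CPM, log axis), with IP groups on the left, supernatant groups in the middle and the pair of libraries without Cre on the right. Points are libraries, open points those with the last 10 sample numbers, and bars are group means. The lowest adult library (21.3 CPM) sits just above the highest young one (20.1 CPM).

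As fitted by edgeR, Il33 was 2.46 ± 0.42 higher on the log2 scale in adult than in young DHT IP, and 2.73 ± 0.43 higher in vehicle IP (SE). In the supernatant the adult minus young difference was 2.79 ± 0.18 after DHT and 2.85 ± 0.19 after vehicle. These are increases of 5.49, 6.62, 6.90 and 7.22 times. Ordered by fold change from the highest increase, Il33 came 5th of 16286 genes after DHT and 8th after vehicle in the supernatant, and 131st and 82nd of 15890 genes in the IP. In punched tissue and in pulldowns from it, more cells of a type and more RNA per cell cannot be told apart. All adult libraries carried earlier sample numbers, so the same difference was taken without the last 10 numbers: it was 3.16 in DHT supernatants. The other contrasts were refitted under that and the other alternative methods, filters and library sets. They gave 2.27 to 2.97 in DHT IP, 2.71 to 2.87 in vehicle IP and 2.83 to 3.03 in vehicle supernatant.

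The 4 adult groups had mean Il33 levels of 79.4 CPM (DHT supernatant), 72.6 CPM (vehicle supernatant), 70.4 CPM (DHT IP) and 70.1 CPM (vehicle IP), and their ranges overlapped. The 4 young groups followed at 13.1 CPM (DHT IP), 11.7 CPM (DHT supernatant), 10.9 CPM (vehicle IP) and 9.87 CPM (vehicle supernatant), again with overlapping ranges. Adult DHT IPs were the most spread, with an SD of 36.6 CPM, against 12.1 CPM in adult vehicle IPs.

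Of the other ligands, Il1f9, which encodes interleukin-36 gamma, came closest to the pattern of Il33, with r = 0.94 between them over the 8 group means of log2 CPM. An r over these 8 points is a description of genes that differ between the ages. In the supernatant Il1f9 had a lowest, median and highest level of 1.88, 5.64 and 8.33 CPM in adult DHT mice, against 1.39, 2.53 and 3.82 CPM in young DHT mice. The 5 adult vehicle supernatants ran from 4.75 to 10.9 CPM, against 1.28 to 6.50 CPM in young vehicle supernatants. These ranges overlapped in the supernatant under both exposures. In vehicle IPs they did not, at 4.05 to 13.7 CPM in adults against 1.67 to 3.30 CPM in young mice, while in DHT IPs they overlapped, at 3.32 to 10.6 CPM in adults against 1.80 to 6.16 CPM in young mice. The fitted adult minus young log2 difference of Il1f9 was 0.88 ± 0.46 in DHT IP, 1.78 ± 0.48 in vehicle IP, 1.12 ± 0.35 in DHT supernatant and 1.42 ± 0.36 in vehicle supernatant.

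Il18 did not share the pattern. Its adult minus young log2 difference lay between -0.17 ± 0.10 (DHT supernatant) and 0.18 ± 0.32 (DHT IP). The shared receptor chain Il1rap was at 9.21 to 14.5 CPM in adult vehicle supernatants, against 5.19 to 9.07 CPM in young vehicle supernatants, with no overlap and a log2 difference of 0.74 ± 0.15. After DHT the difference of Il1rap was 0.34 ± 0.15, with ranges of 10.1 to 14.9 CPM in adults and 8.42 to 12.4 CPM in young mice that overlapped. Il1rl1, the receptor of interleukin-33, was at 0.0955 to 0.622 CPM in adult vehicle supernatants, against 0.179 to 0.913 CPM in young vehicle supernatants. The adult minus young log2 difference of this receptor gene was -0.39 ± 0.43 after vehicle and -0.15 ± 0.46 after DHT, where that of its ligand was 2.85 and 2.79.

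**Figure D2:**
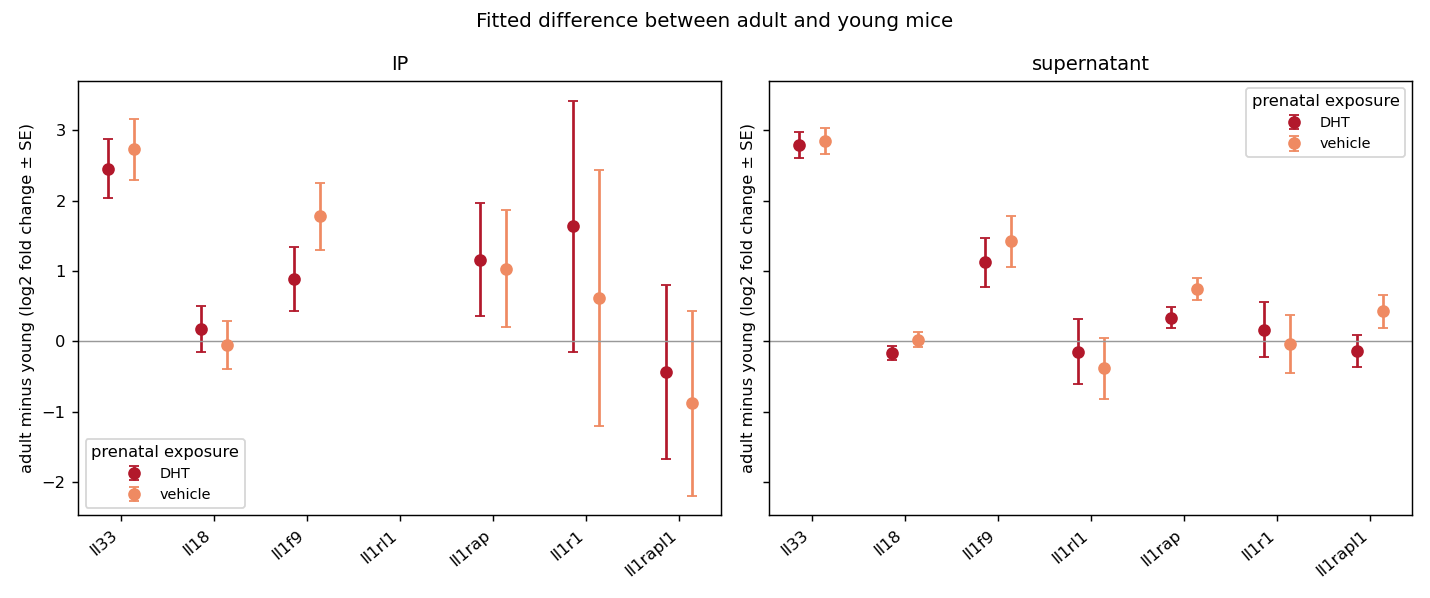
Fitted adult minus young difference (log2 fold change, points, with SE bars) of each member that passed the filter on low counts, in the IP (left) and supernatant (right), after DHT or vehicle. Il33 lies between 2.46 and 2.85 in all 4 contrasts, Il1f9 between 0.88 and 1.78, and Il18 near 0.

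Oligodendrocyte transcripts moved the other way with age. In the supernatant, 7 of 10 oligodendrocyte markers fell in adults after DHT, where 19.9% of all genes were called in either direction, and 8 of 10 after vehicle, where 20.3% were (edgeR's quasi-likelihood test, Benjamini-Hochberg adjusted p below 0.05). They had median log2 differences of -0.78 and -1.01, beside medians of 0.01 over all genes tested. Their sum was 2164 to 4713 CPM in adult DHT supernatants, against 4583 to 6957 CPM in young DHT supernatants, so that 1 adult library reached into the young range. After vehicle the sums did not overlap, at 2232 to 3532 CPM in adults against 5024 to 6719 CPM in young mice. Mobp, a myelin protein gene, fell by 1.91 ± 0.17 on the log2 scale after vehicle (adjusted p = 1.784e-08, edgeR). The 9 astrocyte markers had medians of 0.07 and 0.19, with 1 lower after DHT and 1 higher after vehicle. That is 11.1% called in each, below the 19.9% and 20.3% of all genes. Their sum averaged 573 CPM in adult against 693 CPM in young DHT supernatants, and 574 against 607 CPM after vehicle, with overlapping ranges. In vehicle IPs the astrocyte sums did not overlap, at 271 to 430 CPM in adults against 480 to 648 CPM in young mice. In DHT IPs they overlapped, with means of 397 and 548 CPM. Il33 was thus higher in adult tissue in which the summed oligodendrocyte markers were lower. The part of cell composition in the Il33 difference was not tested.

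Within adults, Il33 followed those same markers from library to library. Over the 11 adult supernatants, Pearson's r between Il33 and the summed oligodendrocyte markers was 0.962 and Spearman's rho 0.927 (permutation test, adjusted p = 0.00048 and 0.00056, raw p = 0.00012 and 0.00014, two-sided, 4 relations computed). Without the 2 libraries farthest from the median marker sum, r was 0.835 (adjusted p = 0.0286, permutation). Il33 had a positive r with every one of the 10 markers taken singly, from 0.849 to 0.963. Of 11542 other genes that averaged 5 CPM or more in some supernatant group, 0.0953% had an r with that sum as high as Il33. At the top, adult DHT supernatant replicate 1 held 118 CPM of Il33 and 4713 CPM of markers, and at the bottom adult DHT supernatant replicate 5 held 57.6 CPM and 2164 CPM. Against the summed astrocyte markers the adult r was 0.437 and rho 0.618 (adjusted p = 0.248 and 0.0634, raw p = 0.186 and 0.0475, permutation), and 13.1% of genes had an r as high. Without the 2 libraries farthest from the median astrocyte sum, that r was 0.598 (adjusted p = 0.12, permutation).

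In young supernatants the relation to oligodendrocyte markers was not seen, with r = -0.313 and rho = -0.301 (adjusted p = 0.322 and 0.34, the same as raw, permutation), and r = 0.0868 without the 2 farthest libraries. Against astrocyte markers the 12 young supernatants gave r = 0.844 and rho = 0.748 (adjusted p = 0.002 and 0.0132, raw p = 0.001 and 0.0066, permutation), across libraries that fell into separate sets. Without the 2 libraries farthest from the median, r was 0.711 (adjusted p = 0.0539, permutation). The 5 supernatants with the last 10 sample numbers held 12.1 to 14.9 CPM of Il33 and 657 to 861 CPM of astrocyte markers, against 6.94 to 10.5 CPM and 518 to 634 CPM in the 7 with earlier numbers. Neither quantity overlapped between those sets. Among the 7 earlier libraries alone, a check chosen after the data were seen, r was -0.367 and rho -0.214 (exact permutation p = 0.444 and 0.662). The 5 others are fewer than the 6 libraries taken as the least for a correlation. Of them, the 3 DHT supernatants held 14.9, 14.2 and 14.4 CPM of Il33 with 861, 806 and 761 CPM of astrocyte markers, against 12.2 and 12.1 CPM of Il33 with 657 and 685 CPM in the 2 vehicle supernatants. The DHT libraries were thus higher in both quantities in that set, and the relation was not seen among the earlier libraries. Whether the relations differ between ages was not tested.

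**Figure D3:**
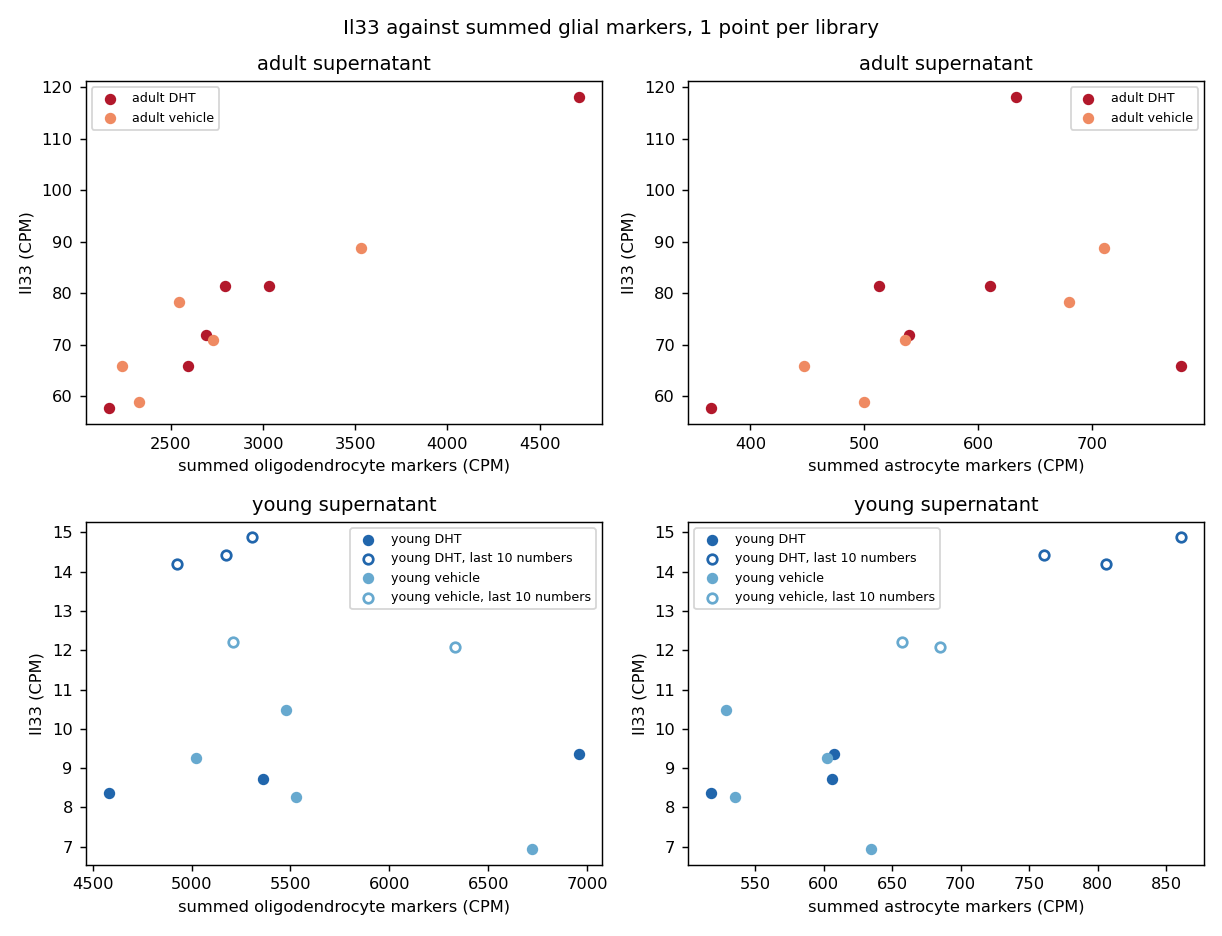
Il33 (CPM) against the summed oligodendrocyte markers (left) and astrocyte markers (right) in adult (top) and young (bottom) supernatants, 1 point per library, with axes that do not start at 0. In adults Il33 climbs with the oligodendrocyte sum (r = 0.962), and in young mice the open points, the last 10 sample numbers, lie above the filled ones for Il33 and to their right for astrocyte markers.

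Among 11175 genes compared, those whose 8 group means ran most like Il33 included Car2 (r = 0.98), Uqcc (0.98), Dpy19l1 (0.98), Cyld (0.97), Ece2 (0.97), Kctd10 (0.97) and Mfsd6 (0.97). Car2, carbonic anhydrase 2, also moved with Il33 among libraries of the same group, with r = 0.67 over the deviations of the 23 supernatants and 0.56 over those of the 23 IPs. Car2 averaged 298 CPM in adult vehicle supernatants, against 150 CPM in young vehicle supernatants. These r values over 8 points are a description of genes that separate the ages.

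Il33 did not differ between IP and supernatant beyond the spread. Its IP minus supernatant log2 difference, averaged over the 4 conditions in 1 fit of 46 libraries, was 0.08 ± 0.16 (adjusted p = 0.7133, edgeR), and it lay between -0.11 ± 0.32 (adult DHT) and 0.23 ± 0.32 (young DHT) in the single conditions. In the mice without Cre, the IP held 6.04 CPM of Il33 and the supernatant 11.1 CPM, a ratio of 0.546 (95% exact interval 0.458 to 0.648, counting error only). That value is a single pair of libraries. Oligodendrocyte markers were called lower in the IP for 5 of 10 and higher for 1, and astrocyte markers lower for 6 of 9, in a contrast that called 46.1% of all genes (21.7% lower). Their median log2 differences were -0.29 and -0.52. How much of the Il33 in the IP came from GnRH neurons was not tested.

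Of the 7 members that passed the filter in that fit, 3 were called between IP and supernatant, where 46.1% of all genes were called (24.4% higher and 21.7% lower in the IP), and limma-voom called 5. The 3 called by edgeR include Il1rl1, which did not pass the filter among IPs alone and is read as a description below. Il18 was the member called higher in the IP. It had a lowest, median and highest level of 14.6, 37.1 and 83.2 CPM in the 23 IPs, against 11.4, 13.95 and 17.9 CPM in the 23 supernatants. The mean difference was 1.42 ± 0.13 on the log2 scale (adjusted p = 3.361e-12, edgeR), and it passed the test in each condition, at 1.40 in adult DHT (21.5% of all genes called), 1.61 in adult vehicle (24%), 1.04 in young DHT (20%) and 1.64 in young vehicle mice (21.9%). The young IPs and supernatants did not overlap for Il18, while the adult ones did. Without the last 10 sample numbers the young DHT difference was 0.92 and no longer passed (adjusted p = 0.132, edgeR). The fitted mean was 2.68 times, and the pair without Cre gave a similar value: Il18 was at 29.9 CPM in that IP and 11.7 CPM in that supernatant, a ratio of 2.56 (2.28 to 2.87, counting error only). A higher level in the IP was thus also measured where no Cre switched on the tag. Microglia, a known source of interleukin-18, had 3 of 10 markers lower and 1 higher in the IP, with a median of -0.43, and their part in the result was not tested.

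Il1rl1 and Il1rapl1 were called lower in the IP. Il1rl1 passed the filter among supernatants but not among IPs alone. It thus entered this contrast through the fraction in which it is higher, and its call is read as a description. Il1rl1 was near its limit of detection, with 0 to 12 reads per IP library. Its level was 0 to 0.257 CPM (median 0.0880) in IPs, against 0.0955 to 0.913 CPM (median 0.224) in supernatants, with a log2 difference of -1.56 ± 0.37 (adjusted p = 0.0004852, edgeR). The gap was called in 1 single condition, adult vehicle (-2.64 ± 0.82, adjusted p = 0.01568, edgeR), where the IPs held 0.140, 0.0512, 0.0276, 0 and 0 CPM, against 0.296, 0.0955, 0.296, 0.622 and 0.234 CPM in the supernatants. A count of 0 there allows up to 3 reads, or at most 0.105 CPM in an IP library with Cre. In the pair without Cre, Il1rl1 had 6 reads in the IP and 5 in the supernatant, too few to set the fractions apart. Mast cells are known to carry ST2. Of their 7 markers, Kit was at 1.44 to 35.8 CPM in IPs and 9.22 to 22.1 CPM in supernatants with Cre. No other marker was above 0.774 CPM in any library with Cre, and Mcpt4 and Fcer1a were at 0 in all of them. The part of mast cells in the Il1rl1 level was not tested. Il1rapl1 was at 0 to 4.94 CPM (median 1.72) in IPs, against 2.35 to 6.70 CPM (median 4.71) in supernatants, and the ranges overlapped. Its log2 difference was -1.38 ± 0.43 (adjusted p = 0.007564, edgeR), and the pair without Cre gave a ratio of 0.353 (0.25 to 0.491, counting error only).

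The remaining members were widely spread among the IP libraries. Il1rap ran from 0.105 to 18.6 CPM over the IPs, against 5.19 to 14.9 CPM over the supernatants, and its difference of -0.45 ± 0.30 missed the threshold (adjusted p = 0.2151, edgeR), although it passed with limma-voom (-0.94, adjusted p = 0.002301). Its exons share 552 bases with an antisense gene, and the library kit does not mark the strand. Il1r1 was split in adult IPs. The adult DHT IPs held 0.0236, 0.0876, 11.1, 6.13, 0 and 0 CPM and the adult vehicle IPs 0.0233, 0, 0, 0 and 7.05 CPM, so that 3 of 11 libraries carried nearly all reads. Its supernatants ran from 0.313 to 2.38 CPM. The Il1r1 difference of 0.70 ± 0.65 (adjusted p = 0.4018, edgeR) turned to -1.15 (adjusted p = 0.1094) without adult vehicle IP replicate 5 and to -1.95 with limma-voom (adjusted p = 0.008604), so no direction can be given. Il1f9 differed by 0.28 ± 0.20 (adjusted p = 0.2578, edgeR). Without Cre, the IP over supernatant ratio was 2.16 for Il1f9 (1.64 to 2.88) and 4.31 for Il1r1 (2.98 to 6.37), both intervals covering counting error only.

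**Figure D4:**
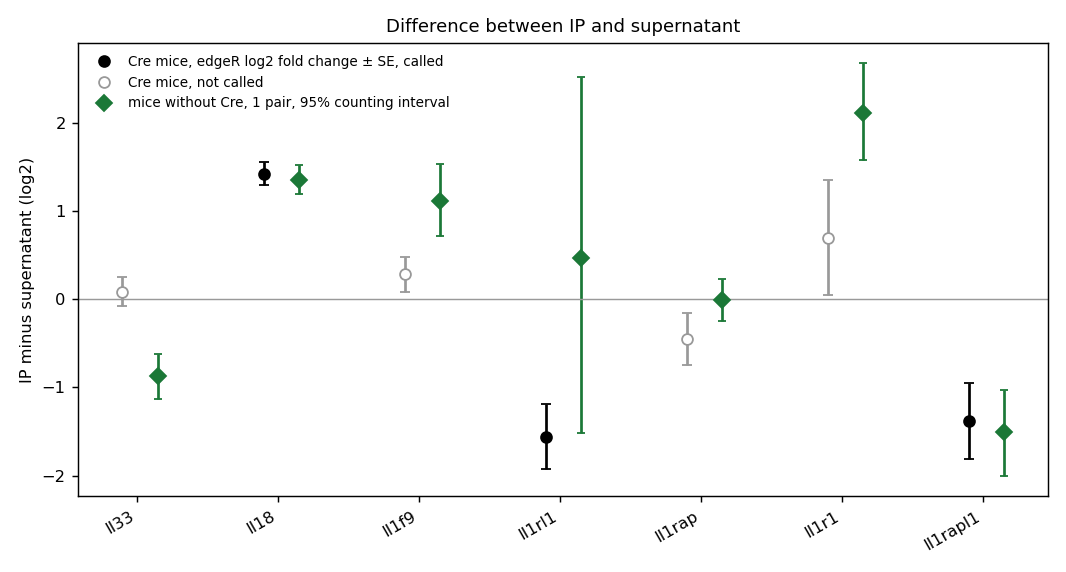
IP minus supernatant difference on the log2 scale. Circles with SE bars are the edgeR estimates over mice with Cre (filled where called at an adjusted p below 0.05), and diamonds are the single pair without Cre with 95% exact counting intervals. Il18 (1.42) and Il1rapl1 (-1.38) have diamonds close to their circles, while the Il33 diamond lies below its circle.

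Il1b, the classical inflammatory ligand, passed the filter in no fit. It had no read in 21 of 23 IPs and 8 of 23 supernatants, and the supernatants reached at most 0.202 CPM. Adult vehicle IP replicate 5 held 52 reads (1.36 CPM) and adult DHT IP replicate 2 held 9 (0.263 CPM). Per kilobase of exon, a scale on which genes can be compared, adult vehicle supernatants averaged 25.2 CPM per kb of Il33 and 13.9 CPM per kb of Il18, and young vehicle supernatants 3.42 CPM per kb of Il33 and 13.4 CPM per kb of Il18. Il33 was thus above Il18 in the adult tissue and below it in the young tissue. Il1f9 reached 4.43 CPM per kb in adult vehicle supernatants, and each of the 4 receptor and receptor-like genes averaged 1.07 CPM per kb or less in every supernatant group.

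**Figure D5:**
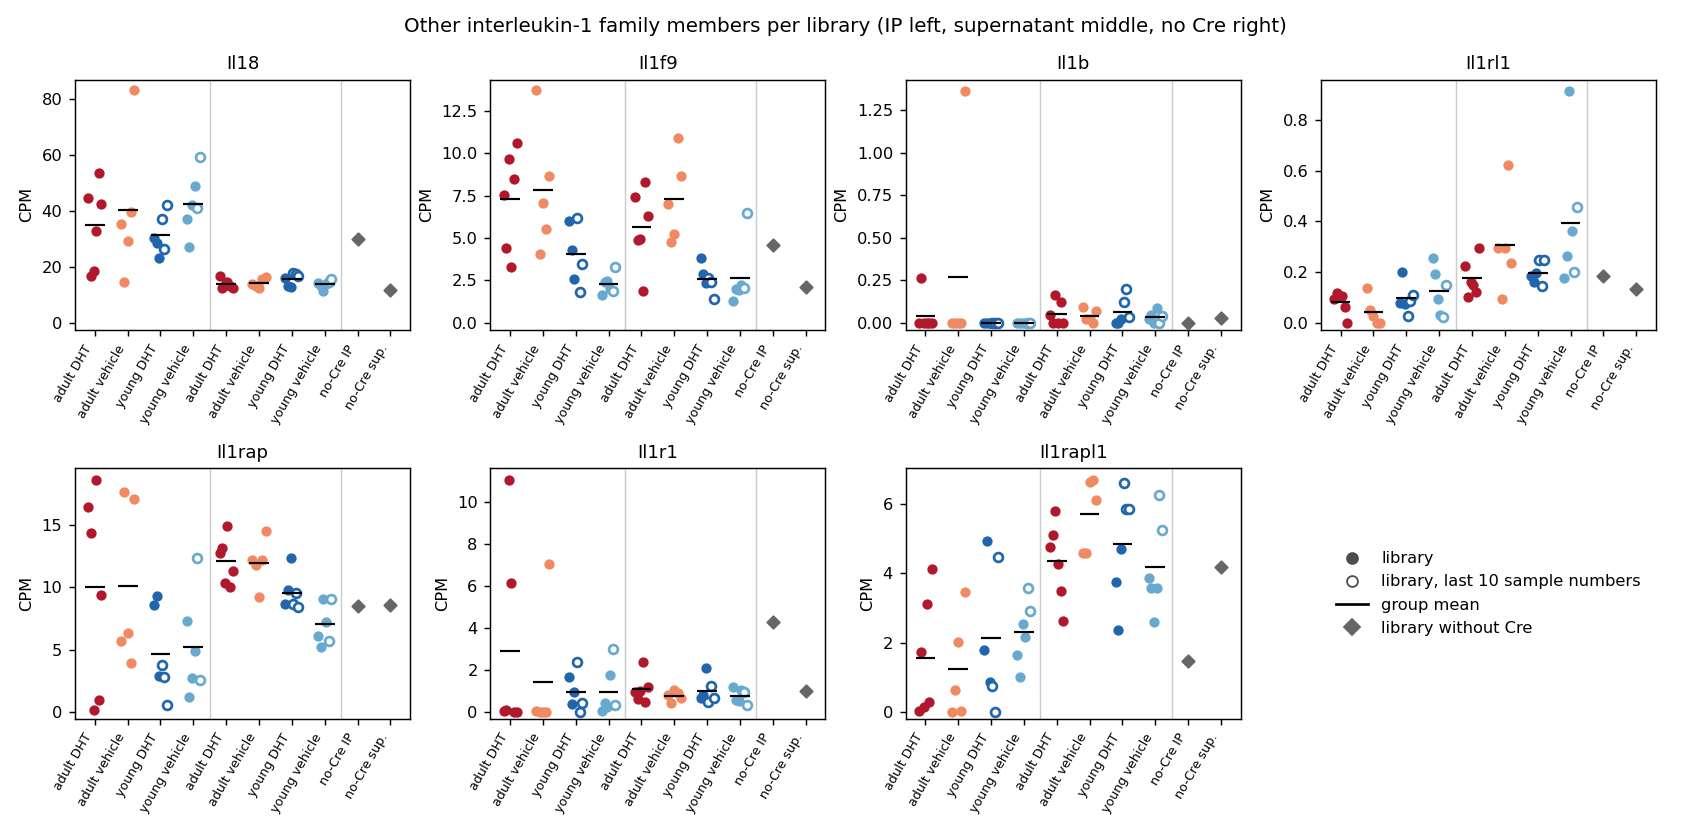
CPM of the 7 other members in every library, 1 panel per gene with its own axis, with IP groups on the left, supernatant groups in the middle and libraries without Cre on the right. Bars are group means and open points the last 10 sample numbers. Il18 is higher and more spread in the IP, Il1r1 is at or near 0 in most adult IPs with 3 libraries between 6.13 and 11.1 CPM, and Il1b is at or near 0 almost throughout.

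No member passed the test for prenatal DHT. Of 6 members in the IP and 7 in the supernatant, 0 were called by edgeR in adult IP (0.00629% of all genes called), young IP (0%), adult supernatant (0%) or young supernatant (0%), and 0 in the DHT by age interaction of either fraction (0% of all genes in each). Over all genes, 1318, 239, 338 and 747 had an unadjusted p below 0.05 in those 4 comparisons, and 857 (IP) and 888 (supernatant) in the interactions. DESeq2 called 151, 2, 0 and 1 genes in the 4 comparisons and 50 and 0 in the interactions, and limma-voom 0, 0, 1 and 0 with 0 in both interactions, no member among them. The Il33 levels overlapped between DHT and vehicle in all 4 settings. Its DHT minus vehicle log2 difference was 0.00 ± 0.42 in adult IP, 0.27 ± 0.40 in young IP, 0.14 ± 0.18 in adult supernatant and 0.21 ± 0.18 in young supernatant (adjusted p = 1, 1, 1 and 0.9759, edgeR). The interaction estimates were -0.27 ± 0.58 (IP) and -0.07 ± 0.25 (supernatant).

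The smallest unadjusted p among members belonged to receptor genes of the young supernatant. Il1rap was at 8.42, 9.12 and 12.4 CPM (lowest, median, highest) after DHT, against 5.19, 6.66 and 9.07 CPM after vehicle, a log2 difference of 0.42 ± 0.15 (unadjusted p = 0.008604, adjusted p = 0.9759, edgeR). Il1rl1 was at 0.144, 0.191 and 0.249 CPM after DHT, against 0.179, 0.312 and 0.913 CPM after vehicle, a log2 difference of -1.02 ± 0.43 (unadjusted p = 0.02618, adjusted p = 0.9759, edgeR). Both pairs of ranges overlapped, and neither passed the correction. Taken within sample numbers, Il33 in young supernatants of the last 10 averaged 14.5 CPM in 3 DHT and 12.2 CPM in 2 vehicle libraries. Those ranges did not overlap, and the exact permutation p of 0.2 is the smallest that this two-sided test can give there. Among the earlier numbers Il33 averaged 8.82 CPM in 3 DHT and 8.73 CPM in 4 vehicle libraries, with overlap (exact permutation p = 0.8). Il1rapl1 was also higher in the young supernatants of the last 10 numbers, at 5.25 to 6.60 CPM, against 2.35 to 4.71 CPM in those with earlier numbers.

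The rest of the pathway, a list of 42 other ligands, receptors, signalling and processing genes, was also compared between fractions. Of 33 tested, 5 were higher and 12 lower in the IP (51.5% called, beside 46.1% of all genes), and the median log2 difference was -0.09, beside 0.00 over all genes. Within the IP alone the filter kept 29 of the list. Genes dropped there entered this contrast mainly through supernatant counts, which favours a lower call, so the lower count is a description. Among the signalling genes, Tab2 (1.49 ± 0.17), Tab3 (1.01 ± 0.17) and Rela (0.89 ± 0.14), which encodes a subunit of nuclear factor kappa B, were higher in the IP, as was its inhibitor Nfkbia (0.61 ± 0.11). Tollip (-0.53 ± 0.06), Ikbkg (-0.68 ± 0.10) and Peli3 (-0.52 ± 0.09) were lower. Irak3 was also called lower, but it passed the filter mainly through its supernatants, so that call is a description. Irak3, which restrains this signalling, had no read in all 6 adult DHT IPs, against 0.332 to 2.33 CPM in adult DHT supernatants, but reached 3.04 CPM in a young DHT IP, against 0.186 to 0.899 CPM in young DHT supernatants. The partner receptor genes were scarce: Il18r1 stayed at or under 0.448 CPM in the adult DHT supernatants and under that in every other group. Il1rl2, the interleukin-36 receptor, stayed at or under 0.406 CPM in every supernatant group. In the IP, Il1rl2 reached 1.03 CPM in 1 young DHT library, with no read in the other 5 of that group.

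With age, 5 of 32 pathway genes passed in DHT supernatant (15.6%, beside 19.9% of all genes) and 3 of 32 in vehicle supernatant (9.38%, beside 20.3%). In the IP it was 1 of 29 after DHT (3.45%, beside 7.12%) and 2 of 29 after vehicle (6.9%, beside 3.83%). In the supernatant, Peli3, an E3 ligase of the Irak step, was higher in adults after DHT (0.44 ± 0.09, adjusted p = 0.001072, edgeR) and after vehicle (0.37 ± 0.09, adjusted p = 0.006292, edgeR). Tab1 was lower in both (-0.25 ± 0.08 and -0.37 ± 0.08, adjusted p = 0.0271 and 0.003118, edgeR). After DHT, Irak1, Irak2 and Traf6 also rose (0.22, 0.40 and 0.50, adjusted p = 0.03383, 0.02884 and 0.03668, edgeR), so 4 of 32 were higher and 1 lower, and after vehicle Peli1 also fell (-0.29 ± 0.09, adjusted p = 0.02296, edgeR), so 1 was higher and 2 lower. Without the last 10 sample numbers the DHT supernatant counts were 1 higher and 0 lower. In the IP, 0 of 29 were higher, Sigirr was lower after DHT (adjusted p = 0.009965) and Peli1 and Gsdmd after vehicle (adjusted p = 0.0422 and 0.04448, all edgeR). The lower count after DHT was 0 with limma-voom, with a filter of 1 CPM, in the compared groups alone and without the last 10 sample numbers, and the one after vehicle was 0 in the compared groups alone and 1 in each of limma-voom, the 1 CPM filter and the fit without the last 10 numbers. Sigirr, a receptor that restrains the family, had no read in all 6 adult DHT IPs, against 0 to 1.70 CPM in young DHT IPs, and Gsdmd was at 0 to 0.0262 CPM in adult vehicle IPs, against 0 to 6.80 CPM in young vehicle IPs. Sigirr and Gsdmd thus passed the filter through groups other than those in which they were lower. Their calls, and the lower counts in the IP that include them, are read as a description.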

How the data were processed

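Per the labels' protocols, poly(A) RNA of preoptic area punches was purified with RNeasy Plus Micro and made into libraries with SMARTer v4 Ultra Low, which does not mark the strand. The authors deposited 1 table of estimated counts for 23284 genes in 48 libraries, in which 98.49% of values were exactly whole (no tolerance). Per the submitters' processing notes, the tools were TopHat2 2.0.13 with Bowtie2 2.2.1 on mm10, together with HTSeq 0.6.1, Cuffdiff 2.1.1 of Cufflinks, DESeq2 1.14.1 and FastQC 0.11.3. Which of them made the counts is not stated.

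Values were rounded and tested with edgeR 4.0.16 in R 4.3.3: filterByExpr (minimum count 10, minimum total 15), TMM scaling, the robust quasi-likelihood F test and Benjamini-Hochberg adjustment over all genes, with calls below an adjusted p of 0.05. A joint fit of 46 libraries (16660 genes) set IP against supernatant, and exposure and age were tested within each fraction in 23 libraries (15890 genes in IP, 16286 in supernatant). The filter kept 7 members in the joint fit (not Il1b), 6 in IP (not Il1b or Il1rl1) and 7 in supernatant (not Il1b). Libraries without Cre entered no fit. Alternatives were DESeq2 1.42.0, limma-voom 3.58.1 with sample weights, RLE scaling, other filters, the compared groups alone, a replicate block, leaving out the last 10 sample numbers, and leaving out each library. The tests were checked on simulated counts. Intervals and floors (3 reads) cover counting error only.

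Correlation p-values came from 100000 permutations, adjusted over 4 relations, or from all permutations for 7 libraries. Genes like Il33 were the 8 with the highest r over group means of log2 CPM, among annotated genes with at least 5 CPM in a group; not all of them are reported here. Of the pathway list, up to 4 called genes per direction with the smallest adjusted p were named, and other pathway genes were named after their values were seen. All 8 members matched a RefSeq promoter, in 11 windows. The members and lists were chosen with earlier results of these data known. The labels do not say whether replicates are single animals, and the p-values then measure the spread between libraries, which may be technical.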

Additional observations from a re-analysis of the deposited data

Results flagged for a closer look

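In 62 groups of 4 to 10 libraries, the highest or lowest library was compared with the gap to its nearest neighbour, and 6 stood apart. Chance marks about 1 in 20 groups of normally spread values. Where all libraries but 1 are at 0 the rule is met by construction, as for both Il1b values below and nearly so for Il1r1 in the adult vehicle IP. The count of 6 is therefore not read against chance. Il1r1 in adult vehicle IP replicate 5 was at 7.05 CPM, against 0 to 0.0233 CPM in the others of its group, and the same library held 1.36 CPM of Il1b, against 0 in the others. Il1b in adult DHT IP replicate 2 was at 0.263 CPM, against 0 in the others. Il1r1 in adult DHT supernatant replicate 4 was at 2.38 CPM, against 0.483 to 1.18 CPM. Il1f9 in young vehicle supernatant replicate 6 was at 6.5 CPM, against 1.28 to 2.21 CPM. Il1rap in young DHT supernatant replicate 3 was at 12.4 CPM, against 8.42 to 9.76 CPM.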

How the results depend on the processing

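Of 1606 values recomputed under alternatives, 1508 kept their direction and their side of the threshold, or stayed within the spread or within 1.5 times a count. Most of these, 1288, left out a single library, and 1231 of them held. Of the 318 other alternatives, which changed the method, filter or set of libraries, 277 held. The cause was not tested for the values that did not hold. The number of members called between IP and supernatant was 5 with limma-voom and 5 with the replicate block, and 3 without any single library. The Il33 IP minus supernatant difference was -0.090 with limma-voom and -0.035 with the replicate block. That of Il1r1 was -1.95 with limma-voom and -2.15 with the replicate block (adjusted p = 0.02757), and -1.15 to 0.79 as single libraries were left out. The Il33 DHT minus vehicle difference in adult IP, near 0, was -0.017 with DESeq2, -0.21 with limma-voom, -0.018 with RLE scaling, -0.0058 without a filter, -0.010 with a filter of 1 CPM, -0.061 with the replicate block, and -0.19 to 0.18 without single libraries. In adult supernatant it was -0.017 to 0.22 and its interaction in supernatant -0.22 to 0.014 without single libraries. Without the last 10 sample numbers, the young IP difference was -0.16 and the interactions 0.16 (IP) and 0.13 (supernatant).

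The adult minus young difference of Il33 in DHT supernatant was 3.16 without the last 10 numbers. The young r of Il33 was 0.0868 (oligodendrocyte) and 0.711 (astrocyte) without the 2 farthest libraries and -0.367 (astrocyte) in the earlier numbers. Pathway counts between ages moved as follows. DHT IP lower was 0 with limma-voom, the filter of 1 CPM, the compared groups alone and without the last 10 numbers. Vehicle IP higher was 2 with DESeq2 and 0 to 1 without single libraries, and lower was 1 with limma-voom, the 1 CPM filter, the block and without the last 10 numbers, 0 in the compared groups alone, and 0 to 2 without single libraries. DHT supernatant higher was 1 without the last 10 numbers and 1 to 5 without single libraries, and lower was 4 with limma-voom, 2 in the compared groups alone, 0 without the last 10 numbers and 0 to 2 without single libraries. Vehicle supernatant higher was 2 with DESeq2, RLE scaling and the 1 CPM filter, 3 with limma-voom and 1 to 2 without single libraries, and lower 1 to 2 without single libraries.

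Counts over all genes moved by more than 1.5 times as follows. Adult minus young called 277 genes in DHT IP against 1131, 372 in vehicle IP against 608, and 1121 in DHT supernatant against 3248 without the last 10 numbers. In vehicle IP it called 1149 with DESeq2, 963 with limma-voom and 313 without young vehicle IP replicate 1. IP minus supernatant called 2090 against 3576 (adult DHT) and 2480 against 4002 (adult vehicle) in the compared groups alone, 1584 against 3324 (young DHT) without the last 10 numbers, and 5646 against 3643 (young vehicle) with limma-voom. DHT minus vehicle called 39 genes in young supernatant without the last 10 numbers, and the supernatant interaction 4.

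Same-numbered IP and supernatant libraries deviated together with r of -0.075 to 0.336, over 0.1 in 11 of 23 pairs, and 17 of 23 IPs correlated best with their own number. Same-numbered DHT and vehicle libraries gave -0.043 to 0.341, over 0.1 in 5 of 22. The labels do not say that a number ties an IP to its supernatant, and the own-number count is a hint from the data, not from the design. With the replicate block Il1rap was at -0.91 (adjusted p = 0.02608). The fit of the compared groups alone gives no value for the mean of 4 conditions or the interactions. Depth limits Il1b and Il1rl1 most, both near the level of single reads.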
